A study of Mus musculus with 10 samples.

Results

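Ccn1, Ccn2, Thbs1, Tnc, Fstl1 and Tgm2 encode proteins that can act in or on the extracellular matrix, and their transcripts were followed here across 5 cell populations of the mouse paw pad. The 6 genes were selected on their MAS5 signals across these same arrays, so their differences between populations are given as descriptions, with no test. They are 6 of 12393 genes with a probe set annotated to a single symbol, and 14 of 20380 such probe sets. All 6 genes passed the filter on low signals, and the signal of each on every array is given below.

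The 5 populations were gland myoepithelial, gland luminal, duct basal and duct suprabasal cells of the sweat gland and palmoplantar epidermis, each hybridised to 2 arrays labelled as biological replicates. All came from female, wild-type CD1 mice and were purified by fluorescence-activated cell sorting, and no group received a treatment. A sweat gland has a coiled secretory part, in which contractile myoepithelial cells surround luminal cells, and a straight duct with a basal and a suprabasal layer. The labels name neither the sorting markers nor the number of animals behind an array.

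Matricellular proteins are secreted into the matrix without building it: they bind integrins, proteoglycans and growth factors and alter adhesion and signalling, and many are induced in wounds. CCN1 and CCN2 bind integrins and heparan sulphate, and their genes are classical targets of the Yap and Tead and of the Srf transcription factors. Thrombospondin 1, the product of Thbs1, binds the receptors CD36 and CD47 and can activate latent transforming growth factor beta, tenascin-C of Tnc modulates adhesion to fibronectin, the follistatin-like glycoprotein of Fstl1 modulates bone morphogenetic protein signalling, and transglutaminase 2 of Tgm2 cross-links matrix proteins such as fibronectin.

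The gland arrays carried transcripts that name their populations, the duct layers were set apart by some markers only, and some arrays carried transcripts of other cells. Myh11, the smooth muscle myosin, had signals of 18782 and 19074 on the myoepithelial arrays and at most 131.7 on the 8 others, and Aqp5, the secretory water channel, was brightest on the luminal arrays at 16771 and 24287. The basal keratin Krt5 had 24116 and 26013 on the duct basal arrays and 1652 and 5105 on the duct suprabasal arrays. The differentiation keratin Krt1 was not brighter in the suprabasal layer, with 4147 and 8452 on the duct basal and 2859 and 3159 on the duct suprabasal arrays. Krt10 overlapped, with 2499 and 10255 against 5549 and 3754. The simple epithelial keratin Krt18 had 3744 on myoepithelial array 1 and 444 on array 2, and 9821 and 4751 on duct suprabasal arrays 1 and 2, against 15132 and 17023 on the luminal arrays. The summed signal of 10 fibroblast marker genes was 18726 and 98548 on duct suprabasal arrays 1 and 2, and that of 10 endothelial marker genes 6584 and 30558. On the other arrays the fibroblast sum ranged between 1325 and 26671 and the endothelial sum between 87.6 and 1382. Immune markers had a summed signal of 5327 and 7296 on the myoepithelial arrays against 286.5 and 977.7 on the luminal arrays, and 8 of 8 passed limma's test as higher in the myoepithelial population. The epidermis arrays were dimmer, with median signals of 65.7 and 67.3, while the remaining medians lay between 92.7 and 120.1.

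The genes peaked in different populations. Ccn2 and Tgm2 were brightest in myoepithelial cells, Thbs1 in luminal cells, Tnc in duct basal cells and Fstl1, through 1 array, in duct suprabasal cells. Ccn1 was about equally bright in myoepithelial and duct basal cells. By their brightest probe sets, all but Tnc were dimmest in epidermis. In bulk samples, fewer cells of a type that holds a transcript and less of it per cell cannot be told apart.

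**Figure D1:**
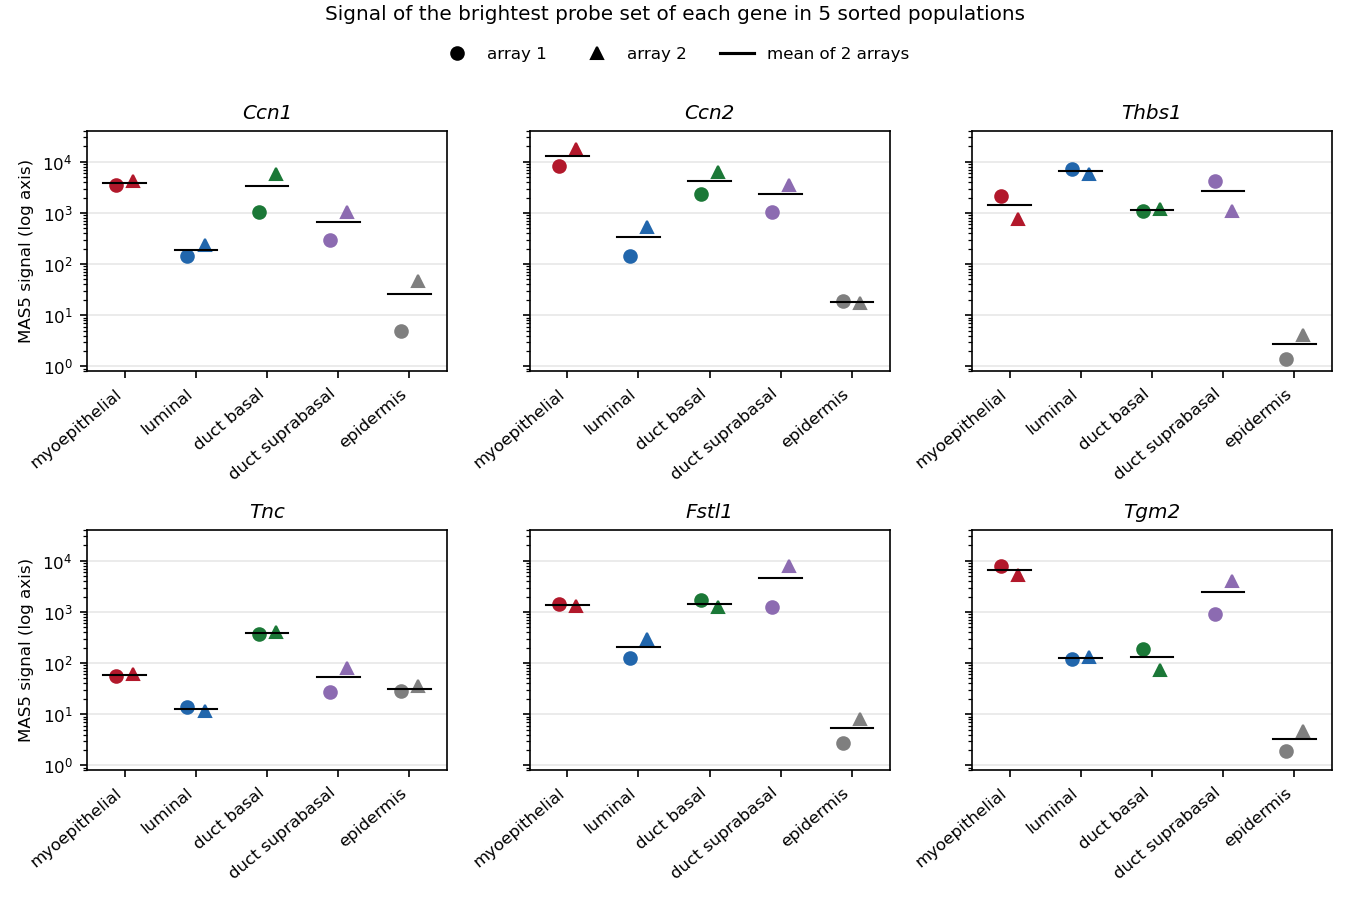
Signal of the brightest probe set of the 6 genes in 5 sorted populations, on a log axis, with a circle for array 1, a triangle for array 2 and a line at the mean. Tgm2 spans 5282 to 7788 on the myoepithelial arrays and stays below 5 on both epidermis arrays, while Tnc is above 300 on the duct basal arrays only.

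Ccn1 encodes the cysteine-rich angiogenic inducer, which is made quickly when cells are stimulated. Its promoter is shown with those of Tnc and Fstl1, the 3 of the 6 genes matched in the RefSeq table, and Ccn2, Thbs1 and Tgm2 were not searched. RefSeq sequence from 250 bases before to 50 bases after the start was searched on both strands for GGAATG (Tead), TGANTCA (AP-1), GTCTG (Smad) and the CArG box of Srf, and matches are in capitals. The promoters of Ccn1 (GRCm38.p6, chr3:145649936-145650235, minus strand), of the downstream of the Tnc starts in the table (chr4:64046887-64047186, minus strand) and of Fstl1 (chr16:37776805-37777104, plus strand), each 300 bases and written 5′ to 3′, read:
Ccn1: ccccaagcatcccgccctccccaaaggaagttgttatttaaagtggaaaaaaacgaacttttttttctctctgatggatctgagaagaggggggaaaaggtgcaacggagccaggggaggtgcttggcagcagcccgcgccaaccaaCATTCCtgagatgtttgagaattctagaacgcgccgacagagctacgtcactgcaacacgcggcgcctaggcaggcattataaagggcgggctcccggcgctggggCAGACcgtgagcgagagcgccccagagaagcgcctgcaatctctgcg
Tnc: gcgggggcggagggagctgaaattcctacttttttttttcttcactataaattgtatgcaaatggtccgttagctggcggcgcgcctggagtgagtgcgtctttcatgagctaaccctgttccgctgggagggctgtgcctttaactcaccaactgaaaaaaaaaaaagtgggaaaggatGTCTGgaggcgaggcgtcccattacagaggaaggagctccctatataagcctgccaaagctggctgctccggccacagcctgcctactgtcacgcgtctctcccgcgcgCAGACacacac
Fstl1: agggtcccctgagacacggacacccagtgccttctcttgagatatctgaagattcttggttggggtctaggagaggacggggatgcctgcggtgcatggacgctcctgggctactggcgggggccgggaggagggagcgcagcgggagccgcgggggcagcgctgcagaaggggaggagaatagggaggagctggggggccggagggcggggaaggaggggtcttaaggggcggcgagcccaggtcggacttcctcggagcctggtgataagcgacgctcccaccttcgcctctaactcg
In the Ccn1 promoter the Tead letters stood on the opposite strand with their first base at position -103 from the start, and the Smad letters at position 4 after it. The Tnc promoter held Smad letters at positions -70 and 40. Of the 4 searched, no motif was found in the Fstl1 window. Among 32851 promoters of the same length, 14.7% held the Tead letters, 7.81% the AP-1 letters, 49.6% the Smad letters and 1.63% a CArG box.

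Ccn1 had signals of 3468 and 4169 on the myoepithelial arrays, 144.9 and 235.5 on the luminal arrays, 1067 and 5705 on the duct basal arrays, 289.9 and 1037 on the duct suprabasal arrays, and 5.0 and 47.4 on the epidermis arrays. The duct basal arrays lay 5.35-fold apart and enclosed both myoepithelial values, so the order of these populations was not settled. From there the order ran down through duct suprabasal and luminal cells to epidermis, with no overlap between the arrays of neighbours. On the log2(signal + 12) scale myoepithelial cells stood above luminal cells by 4.28 (standard error, SE, 0.85, from the fit over 10 arrays) and duct basal cells above duct suprabasal cells by 2.14 (SE 0.85). Leaving out duct basal array 1 gave 3.35 for the duct layers, leaving out its partner array 2 gave 0.94, and leaving out duct suprabasal array 1 gave 1.24. Between myoepithelial and duct basal cells the difference was 0.62 (SE 0.85), and it was -0.58 without duct basal array 1. A second probe set of Ccn1 followed the first over the 10 arrays (r = 0.976) and put duct basal cells first, at 47.6% of the sum of the 5 population means against 40.7% in myoepithelial cells.

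Ccn2 encodes connective tissue growth factor. It had 8210 and 17631 on the myoepithelial arrays, 147.1 and 534.5 on the luminal arrays, 2338 and 6266 on the duct basal arrays, 1066 and 3568 on the duct suprabasal arrays, and 19.2 and 17.5 on the epidermis arrays. Myoepithelial arrays stood above all others, and only the duct basal and duct suprabasal arrays overlapped. Mean signals were 12920 ± 6662 in myoepithelial and 340.8 ± 273.9 in luminal cells (SD, n = 2 each), a log2 difference of 5.35 (SE 0.73). Myoepithelial cells exceeded duct basal cells by 1.65 (SE 0.73) on that scale (0.94 to 2.36 with 1 array left out), and duct basal exceeded duct suprabasal cells by 0.97 (SE 0.73). With 1 array left out the difference between the duct layers ran between 0.10 and 1.83. Both epidermis values were below the 40th percentile of their arrays, which is 33.5 to 60.3 over the 10 arrays and served as the limit of the filter.

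Over the 10 arrays Ccn1 and Ccn2 had a correlation of 0.96 on the log2 scale, and of 0.99 over the 5 population means. Each correlation here describes arrays that share populations, with 2 arrays in each, and takes in the epidermis arrays. Ccn2 also went with Fstl1 (0.90) and Tgm2 (0.82), and Ccn1 with Fstl1 (0.83). Among all 9320 genes tested, those most like Ccn1 were Prelp (0.97), a matrix proteoglycan gene, Plaat1 (0.97), Ccn2, Col16a1 (0.96), a collagen gene, and Tsc22d1 (0.96). Most like Ccn2 were Fzd8 (0.98), a Wnt receptor gene, Prelp (0.98), Col16a1 (0.98), Lyve1 (0.97), a hyaluronan receptor gene, and Rflnb (0.97). Prelp had 4322 and 6744 on the myoepithelial arrays, 283.3 and 201.0 on the luminal arrays, 2485 and 3256 on the duct basal arrays, 565.1 and 1497 on the duct suprabasal arrays, and 27.5 and 37.4 on the epidermis arrays.

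Thbs1 was brightest in the inner layer of the gland. Its signals were 2138 and 761.4 on the myoepithelial arrays, 7181 and 5812 on the luminal arrays, 1072 and 1186 on the duct basal arrays, 4252 and 1116 on the duct suprabasal arrays, and 1.4 and 4.1 on the epidermis arrays. The luminal arrays lay above all others, and the duct suprabasal, myoepithelial and duct basal arrays overlapped. Myoepithelial cells were below luminal cells by a log2 difference of -2.33 (SE 0.60), and luminal cells above duct suprabasal cells by 1.56 (SE 0.60), which was 2.52 without duct suprabasal array 1 and 0.60 without array 2. On myoepithelial array 1 Thbs1 was 2.81-fold brighter than on array 2, and on duct suprabasal array 1 it was 3.81-fold brighter than on array 2. Krt18 was brighter on the same arrays. On the myoepithelial arrays Krt19 differed likewise (2427 and 255.2), while Krt8 was close (7192 and 6302). The part of other cells in these Thbs1 differences was not tested. Thbs1 differed between myoepithelial and duct basal cells by 0.18 (SE 0.60), and by -0.56 without myoepithelial array 1. Between duct basal and duct suprabasal cells it differed by -0.94 (SE 0.60), and by 0.01 without duct suprabasal array 1.

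A second Thbs1 probe set correlated with the first at 0.97 and gave luminal cells 61.0% of the sum of the population means, against 55.2% for the brightest probe set. Genes most like Thbs1 over the 10 arrays were Limd2, Capns1 (0.99 each), Fads1, a fatty acid desaturase gene, Sox9, a glandular and stem cell transcription factor gene, and Sorl1 (0.99 each). Sox9 had 1350 and 744 on the myoepithelial arrays, 4759 and 4283 on the luminal arrays, 1208 and 2272 on the duct basal arrays, 3627 and 1237 on the duct suprabasal arrays, and 44.1 and 22.7 on the epidermis arrays. Thbs1 had a correlation of -0.01 with Tnc and between 0.53 and 0.67 with the other 4 genes. These values take in the epidermis arrays, on which Thbs1 and the other 4 genes were all dimmest. The luminal arrays, where Thbs1 was brightest, were the dimmest sweat gland arrays for Ccn1, Ccn2 and Fstl1. For Tgm2 they overlapped the duct basal arrays below all others of the sweat gland.

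Tnc, measured by 1 probe set, was brightest in duct basal cells. It had 56.6 and 61.4 on the myoepithelial arrays, 14 and 11.5 on the luminal arrays, 376.7 and 413.4 on the duct basal arrays, 27.4 and 80.3 on the duct suprabasal arrays, and 28.2 and 35.5 on the epidermis arrays. The duct basal arrays stood above all others and the luminal arrays below all others. In duct basal cells the mean was 395.1 ± 26 and in duct suprabasal cells 53.9 ± 37.4 (SD, n = 2 each), a log2 difference of 2.75 (SE 0.42), and against epidermis the difference was 3.22 (SE 0.42). Myoepithelial cells were below duct basal cells by a log2 difference of -2.52 (SE 0.42). Tnc lay above the 40th percentile on 5 of the 10 arrays, and differences among the 4 dimmer populations rest on low signals.

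Genes most like Tnc included Incenp (0.98), which encodes a mitotic scaffold protein, and Mcm7 (0.97), which encodes a subunit of the replicative helicase, next to Nup133, Atxn10 (0.98 each) and Eif4b (0.97). Incenp had 506.8 and 502.4 on the myoepithelial arrays, 170.1 and 187.3 on the luminal arrays, 3796 and 3030 on the duct basal arrays, 394.2 and 422 on the duct suprabasal arrays, and 281.1 and 430 on the epidermis arrays.

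Fstl1 had 1458 and 1305 on the myoepithelial arrays, 127.9 and 289.6 on the luminal arrays, 1692 and 1222 on the duct basal arrays, 1242 and 8038 on the duct suprabasal arrays, and 2.8 and 8.2 on the epidermis arrays. Myoepithelial, duct basal and duct suprabasal cells overlapped, since duct suprabasal array 1 lay at the level of the others and array 2 was 6.47-fold brighter. Luminal cells came next and epidermis last, without overlap. The log2 difference was 2.76 (SE 0.72) between myoepithelial and luminal cells and -0.06 (SE 0.72) between myoepithelial and duct basal cells. Luminal cells were below duct suprabasal cells by -3.95 (SE 0.72) on this scale, and by -2.61 without duct suprabasal array 2. Between duct basal and duct suprabasal cells the difference was -1.13 (SE 0.72), and it was 0.21 without that array. Its other probe set agreed over the 10 arrays with r = 0.998.

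The genes most like Fstl1 were Glis2 (0.99), Cd200 (0.98), Apbb2 (0.98), St6gal1 (0.98) and Adgre5 (0.98). Cd200, which encodes a membrane glycoprotein of endothelium, stem cells and other cells, had 719.9 and 814.7 on the myoepithelial arrays, 137.3 and 193.5 on the luminal arrays, 539 and 467.9 on the duct basal arrays, 1174 and 2941 on the duct suprabasal arrays, and 2.0 and 19.1 on the epidermis arrays.

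Tgm2 had opposite layer differences in gland and duct, with no overlap between the arrays of the layers in either. It had 7788 and 5282 on the myoepithelial arrays, 122.6 and 133.1 on the luminal arrays, 187.5 and 74.6 on the duct basal arrays, 919.5 and 3954 on the duct suprabasal arrays, and 1.9 and 4.7 on the epidermis arrays. Myoepithelial arrays stood above duct suprabasal arrays, and these above the luminal and duct basal arrays, which overlapped. In the gland the outer layer was the brighter, with a mean of 6535 ± 1772 in myoepithelial and 127.9 ± 7.42 in luminal cells (SD, n = 2 each), a log2 difference of 5.52 (SE 0.61). In the duct the outer layer was the dimmer, at 131.1 ± 79.8 in duct basal and 2437 ± 2145 in duct suprabasal cells, a log2 difference of -3.87 (SE 0.61). Without duct suprabasal array 2, on which fibroblast and endothelial transcripts were also brighter, the duct difference was -2.82. Duct suprabasal array 1 also had a higher summed endothelial signal than any array of the other populations. Myoepithelial cells exceeded duct basal cells by 5.61 (SE 0.61).

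Tgm2 had 6 probe sets. Of the 5 others, 3 followed the brightest one with correlations of 0.993 to 0.997 and gave myoepithelial cells between 66.0% and 71.8% of the sum of the population means, against 70.8% for the brightest. One of the others was below the 40th percentile on all 10 arrays, and the remaining one reached no more than 189.8, correlated at 0.83 and had 36.9 and 56.4 on the epidermis arrays, above their 40th percentiles. The genes most like Tgm2 were Lims2 (0.996), a focal adhesion gene, the collagen IV genes Col4a2 (0.99) and Col4a1 (0.98), Fbln5 (0.98), an elastic fibre gene, and Lifr (0.98), a cytokine receptor gene. Col4a1 had 10554 and 12601 on the myoepithelial arrays, 165.7 and 414.5 on the luminal arrays, 290.5 and 227.5 on the duct basal arrays, 937.6 and 4781 on the duct suprabasal arrays, and 3.2 and 1.4 on the epidermis arrays.

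**Figure D2:**
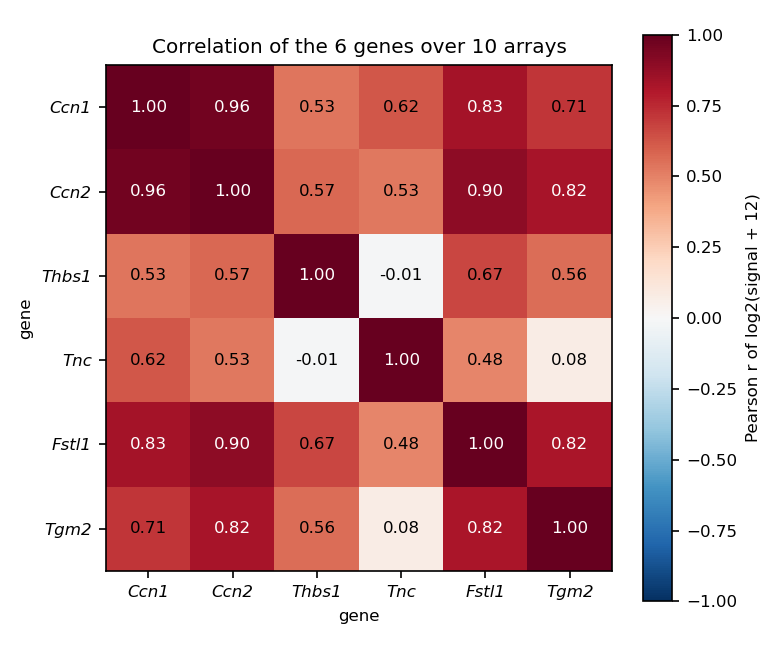
Pearson correlation of log2(signal + 12) between the 6 genes over the 10 arrays, with each value written in its cell. Ccn1, Ccn2, Fstl1 and Tgm2 correlate at 0.71 to 0.96 with each other, and Thbs1 and Tnc at -0.01. The epidermis arrays, on which all genes but Tnc are dimmest, are included.

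Most of the 6 genes had a large share of their signal in 1 population. The population with the highest mean held 47.2% of the sum of the 5 population means for Ccn1, 64.9% for Ccn2, 55.2% for Thbs1, 71.5% for Tnc, 60.3% for Fstl1 and 70.8% for Tgm2. The median of this share was 31.3% over all 9320 genes tested. Since the 6 genes were chosen on these signals, their higher shares are a description only. Without duct suprabasal array 2 the highest share of Fstl1 was 33.9%, in duct basal cells, against a median of 31.7% over all genes. Without duct basal array 1 that of Ccn1 was 54.8%, in duct basal cells. Leaving out any 1 array changed the leading population of no other gene. Epidermis held 5.77% for Tnc and no more than 0.32% for the brightest probe sets of the other 5 genes.

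**Figure D3:**
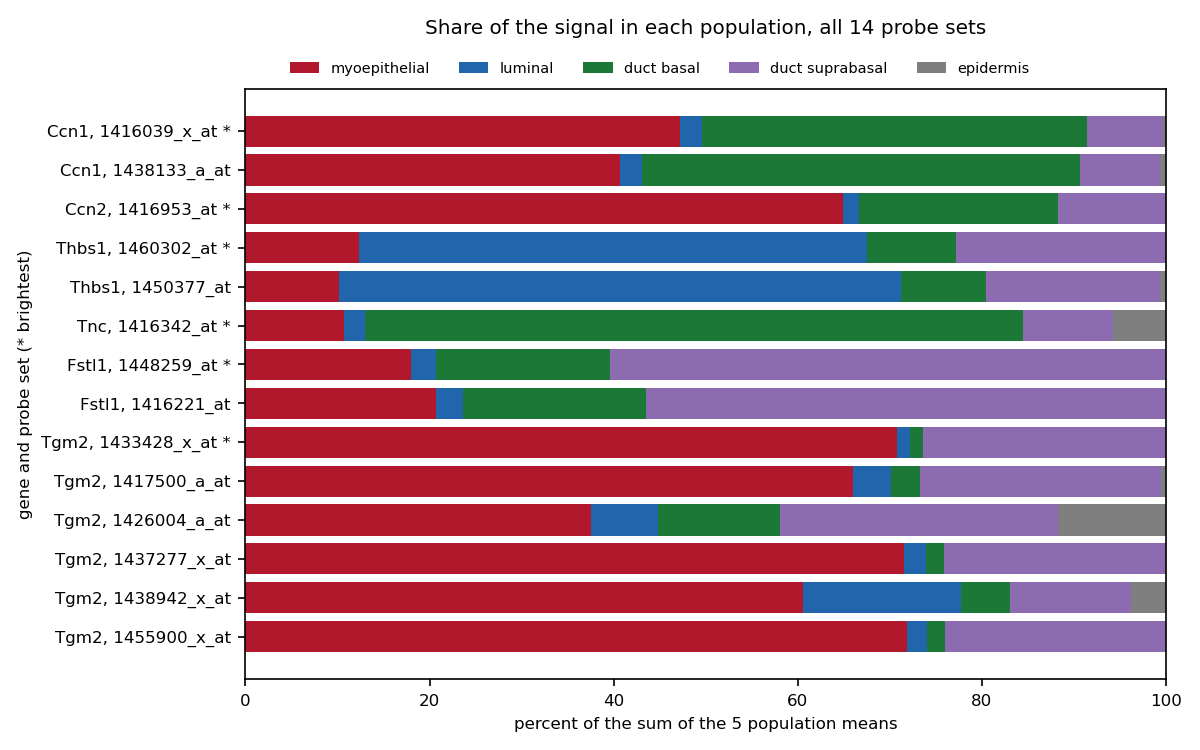
Share of the sum of the 5 population means held by each population, in percent, for all 14 probe sets of the 6 genes, with an asterisk at the brightest probe set of a gene. The probe sets of a gene agree on the leading population except for Ccn1, where myoepithelial and duct basal cells trade places.

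The 2 duct suprabasal arrays differed by over 1 on the log2 scale for each of the 6 genes. There array 2 exceeded array 1 for Ccn1, Ccn2, Tnc, Fstl1 and Tgm2 by log2 differences of 1.80, 1.73, 1.23, 2.68 and 2.09, while Thbs1 was dimmer (-1.92). On the same pair of arrays 10 of 10 fibroblast and 10 of 10 endothelial markers were brighter on array 2, with medians of 2.35 and 2.28, while the median of all genes was -0.02. Defining markers reached high values there: the fibroblast receptor gene Pdgfra had 494.1 and 2027, and the endothelial adhesion gene Pecam1 250.4 and 1063, on duct suprabasal arrays 1 and 2. The part of fibroblast and endothelial transcripts in the duct suprabasal values of these genes was not tested.

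On luminal array 2, too, Ccn2 (1.78) and Fstl1 (1.11) were brighter than on array 1. So were 10 of 10 fibroblast markers (median 1.48), 9 of 10 endothelial markers (median 1.02) and 8 of 8 immune markers (median 1.54), whose part was not tested. In duct basal cells Ccn1 (2.41) and Ccn2 (1.42) were brighter on array 2, and Tgm2 was dimmer (-1.20). There 20 of 22 early response genes, which are switched on within minutes of a stimulus such as tissue dissociation, were also brighter on array 2 (median 0.81), among them Egr1 with 7290 and 17595 and Atf3 with 3114 and 7993. Fibroblast markers were not brighter on duct basal array 2 as a list (4 of 10, median -0.19). Of endothelial markers 1 of 10 was brighter there (median -1.05), and of immune markers 0 of 8 (median -0.43). Their part in the dimmer Tgm2 was not tested. The part of the early response in the spread of Ccn1 and Ccn2 was not tested. In myoepithelial cells Pdgfra was at 17.4 and 1.8 and Pecam1 at 12.7 and 3.1, while Dcn, a proteoglycan gene on the fibroblast list, was at 11955 and 15303. Of the pericyte and smooth muscle markers, Rgs5 was at 527.2 and 586.2 and Cspg4 at 487.9 and 469.2 there. Pdgfrb was at 94.4 and 87 and Anpep at 47.1 and 48.5. The part of such cells in the myoepithelial values was not tested.

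**Figure D4:**
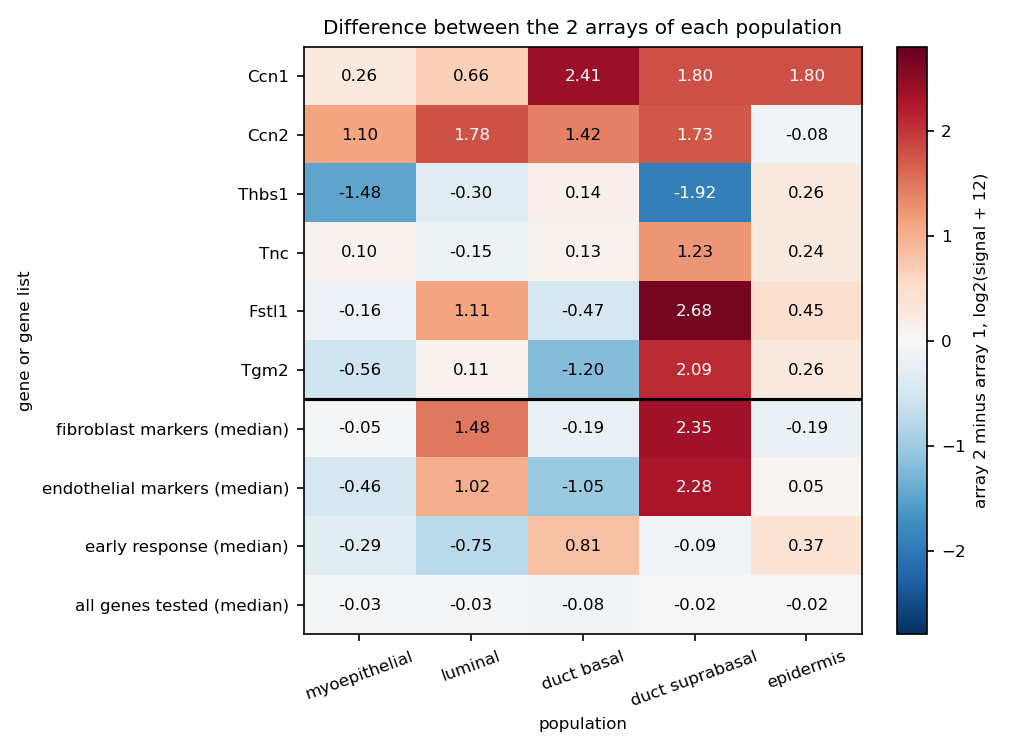
Difference between array 2 and array 1 of each population in log2(signal + 12), for the 6 genes above the line and as medians over gene lists below it. In duct suprabasal cells 5 of the 6 genes are brighter on array 2 by 1.23 to 2.68, beside fibroblast and endothelial medians of 2.35 and 2.28, and Thbs1 is dimmer by -1.92.

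The receptors, activators and regulators of these proteins were examined as gene lists, and unlike the 6 genes they were tested, with limma over all genes. The lists, too, were chosen with earlier results of these data known, and their counts and p-values make no allowance for that choice. Across 9320 genes, 16.5% were higher and 14.5% lower in myoepithelial than in luminal cells at an adjusted p under 0.05. Between myoepithelial and duct basal cells the shares were 12% higher and 12.3% lower, between duct basal and duct suprabasal cells 7.97% and 8.39%, between luminal and duct suprabasal cells 4.95% and 10.2%, and between duct basal cells and epidermis 23% and 11%. Of the calls between luminal and duct suprabasal cells 32.6% were higher, against 43.5% with quantile normalization, and of those between duct basal cells and epidermis 67.7%, against 51.7%. The balance turned round in the comparison of myoepithelial and luminal cells, with 53.2% of calls higher against 47.6%, and in that of the duct layers, with 48.7% against 57.5%. The median log2 differences over all genes were 0.08, 0.02, -0.02, -0.06 and 0.24 in this order. Ranges of calls given with the lists are over fits that each left out 1 array, and most moved by over 1.5 times. In duct basal against duct suprabasal cells 5 of 10 fibroblast and 10 of 10 endothelial markers were themselves lower, in luminal against duct suprabasal cells 9 of 10 and 10 of 10, and their part in the list counts of these comparisons was not tested. Against epidermis 7 of 10 fibroblast, 2 of 10 endothelial and 4 of 4 pericyte and smooth muscle markers were higher in duct basal cells. Their part in that comparison was not tested either.

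Receptor genes were mostly brighter in myoepithelial than in luminal cells. Of 15 tested, 10 were higher and 2 lower, and the list's median log2 difference was 1.53, against 0.08 over all genes. The part of immune transcripts, higher in the same direction, was not tested. Of 4 pericyte and smooth muscle markers 2 were also higher and none lower, and their part was not tested. Adgrg1, the adhesion receptor gene whose product binds transglutaminase 2, had 3188 and 3122 on the myoepithelial arrays and 155.8 and 115.6 on the luminal arrays, a log2 difference of 4.44 (SE 0.43, adjusted p = 0.000170). Lrp1, an endocytic receptor gene for thrombospondin 1 and CCN2 among others, was higher by 3.33 (adjusted p = 0.00183), and Egfr by 3.28 (adjusted p = 0.000160). The thrombospondin receptor gene Cd47 was lower by -1.39 (SE 0.24, adjusted p = 0.00308), with 753.8 and 573.3 on the myoepithelial arrays and 1695 and 1780 on the luminal arrays, and the syndecan gene Sdc4 was lower by -1.24. The count of receptor calls was 6 in place of 12 when all probe sets of a gene were averaged.

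Against duct basal cells 3 receptor genes were higher in myoepithelial cells, Adgrg1 (3.53), the integrin subunit gene Itgb1 (1.77) and Itgav (1.05), and Sdc1 was lower (-1.76). In duct basal cells 1 was higher and 2 lower than in duct suprabasal cells, and Cd36, the other thrombospondin receptor gene and one that endothelium also uses, was lower by -3.53 (adjusted p = 0.00412), with 22.7 and 15.7 on the duct basal arrays and 207.6 and 574.3 on the duct suprabasal arrays. In luminal cells 1 receptor gene was higher and 4 were lower than in duct suprabasal cells. Against epidermis 4 were higher in duct basal cells and 1 lower, led by Itgb1 (3.07) and Itga6 (2.79). With 1 array left out, the receptor counts were 3 to 9 of myoepithelial against duct basal cells, 1 to 5 of duct basal against duct suprabasal cells, 2 to 6 of luminal against duct suprabasal cells and 3 to 8 of duct basal cells against epidermis.

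Most genes on the list of Yap, Tead and Srf, the regulators of Ccn1 and Ccn2 with other targets, were brighter in myoepithelial cells. Of 14 tested, 10 were higher and 1 lower than in luminal cells (8 to 11 calls with 1 array left out), and 9 were higher and none lower than in duct basal cells (4 to 9 calls), with list medians of 1.83 and 1.17. The second count was 5 without myoepithelial array 1 and 4 without myoepithelial array 2 or duct basal array 2. Immune markers were higher here too, 8 of 8 against luminal and 7 of 8 against duct basal cells, and their part was not tested. Of 4 pericyte and smooth muscle markers 2 were higher than in luminal cells, and 1 was lower than in duct basal cells. Their part was not tested either. The list takes no account of whether a gene's product activates or restrains Yap or Srf. Lats2 was among the higher genes in both comparisons (1.22 and 1.96), and Mrtfb was the gene lower than in luminal cells (-1.44). Srf, Yap1, Lats2, Mrtfb, Ankrd1, Amotl2 and the Tead genes are named here after their values were seen. Srf itself had 1578 and 1760 on the myoepithelial arrays and 274.2 and 220.8 on the luminal arrays, a log2 difference of 2.70 (SE 0.27, adjusted p = 0.000201), and differed from duct basal cells by 2.26 (adjusted p = 0.000441). Flna (6.62), which encodes an actin cross-linking protein, Axl (4.85), a receptor kinase gene and Yap target, and Ajuba (4.65), which encodes a Hippo pathway scaffold, were also higher than in luminal cells. Yap1 was higher by 1.57 (SE 0.22, adjusted p = 0.00126). Ankrd1, another classical Yap target, did not pass the filter, with 2.7 and 17.3 on the myoepithelial arrays and 4.9 and 16.4 on the luminal arrays. No Tead gene was called: Tead2 (0.48, adjusted p = 0.549) and Tead3 (0.64, adjusted p = 0.164) did not pass against luminal cells. Neither passed against duct basal cells, and Tead1 and Tead4 did not pass the filter. Amotl2 differed from luminal cells by -0.20 (adjusted p = 0.744).

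Between the duct layers 2 of these genes were higher in duct basal cells, Ajuba (2.34, adjusted p = 0.000491) and Flna (1.19), and 2 lower, Wwtr1 (-1.44) and Lats2 (-1.35), of 14 (1 to 3 calls with 1 array left out). Of luminal against duct suprabasal cells 6 of 14 were lower and none higher (3 to 6 calls). In duct basal cells 7 were higher and 1 lower than in epidermis (4 to 8 calls), with Lats2 at 3.04 and Fhl2 at -2.29.

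**Figure D5:**
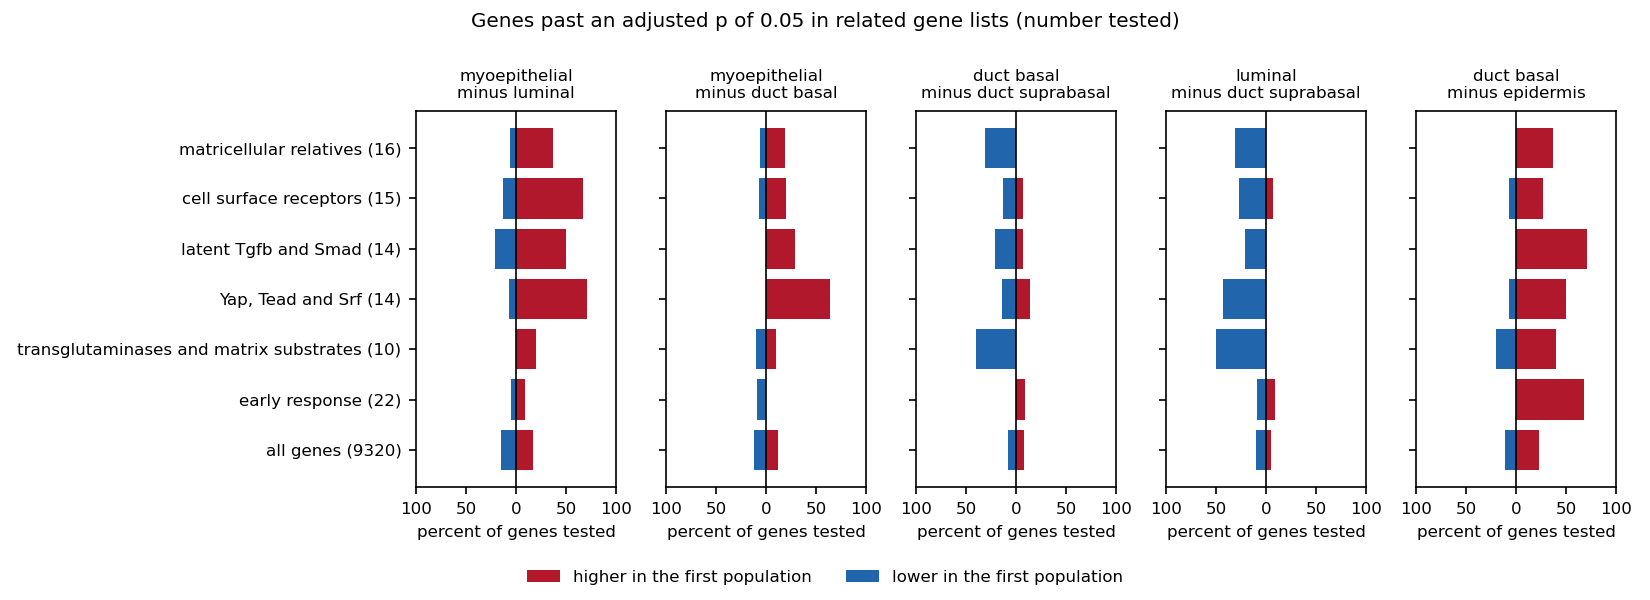
Percent of tested genes of each list, and of all 9320 genes, that passed an adjusted p of 0.05 in the 5 comparisons, with genes higher in the first population to the right in red and lower ones to the left in blue. The list of Yap, Tead and Srf genes reaches 10 of 14 higher in myoepithelial over luminal cells and 9 of 14 over duct basal cells.

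Of 14 latent Tgfb and Smad genes 7 were higher and 3 lower in myoepithelial than in luminal cells (4 to 11 calls), and 4 were higher and none lower than in duct basal cells (1 to 5 calls). The first count was 5 without either myoepithelial array, 6 without luminal array 1 and 4 without luminal array 2, and the list medians were 0.84 and 0.44. Ltbp2, a matrix relative of the latency proteins, stood at 3 (adjusted p = 0.000992) and 3.37 (adjusted p = 0.000470) in these comparisons, and the ligand gene Tgfb2 at -2.15 against luminal cells (adjusted p = 0.00254). In duct basal cells 1 was higher and 3 lower than in duct suprabasal cells (0 to 4 calls), with Tgfb2 at -1.76, and in luminal cells 3 were lower (0 to 5 calls). Against epidermis 10 of 14 were higher in duct basal cells and none lower (5 calls without epidermis array 1), with a list median of 1.60 and the receptor gene Tgfbr2 at 2.57 (adjusted p = 8.06e-05).

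Relatives of the 6 genes were tested as a list. Of 16 relatives tested 6 were higher and 1 lower in myoepithelial than in luminal cells (4 to 7 calls), led by Postn (6.57, adjusted p = 7.43e-05) and Sparc (4.16, adjusted p = 0.00228), both matricellular genes. Ccn3, a family member of Ccn1 and Ccn2, had 65.6 and 34.1 on the myoepithelial arrays, 49.6 and 66.1 on the luminal arrays, 450.1 and 288.6 on the duct basal arrays, 966.6 and 6698 on the duct suprabasal arrays, and 5.9 and 7.9 on the epidermis arrays. It was lower in myoepithelial than in duct basal cells, by -2.64 (SE 0.73, adjusted p = 0.0289). Ccn5 was lower in myoepithelial than in luminal cells (-2.53, adjusted p = 0.0333), and Ccn4 did not pass the filter.

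Thbs4, a relative of Thbs1 and a tendon and fibroblast gene, had 5.0 and 24.3 on the duct basal arrays and 139.4 and 3174 on the duct suprabasal arrays. In duct basal cells 5 of 16 relatives were lower than in duct suprabasal cells and none higher, with Thbs4 at -4.81 (adjusted p = 0.0353) and Ccn3 at -2.78 (adjusted p = 0.0333). Leaving out duct basal array 2 brought that count to 0, duct basal array 1 or either epidermis array to 2, either luminal array to 3 and duct suprabasal array 1 to 8. Between the duct suprabasal arrays 14 of the 16 were brighter on the one that also had the brighter fibroblast markers, array 2. Of luminal against duct suprabasal cells 5 were lower, 13 without duct suprabasal array 1 and 2 without luminal array 1. Of myoepithelial against duct basal cells 3 were higher and 1 lower (2 to 8 calls), and of duct basal cells against epidermis 6 were higher and none lower (5 to 7 calls). Fibroblast markers were higher in duct basal cells than in epidermis too (7 of 10), and their part was not tested.

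Tgm1 and Tgm3 were lower in duct basal cells than in epidermis. Tgm1, the enzyme of the cornified envelope, had 81.0 and 74.4 on the duct basal arrays and 1098 and 1389 on the epidermis arrays, a log2 difference of -3.80 (SE 0.38, adjusted p = 0.000146), and Tgm3 differed by -2.61 (adjusted p = 0.000919). F13a1, which encodes the transglutaminase factor XIII A and is known from macrophages and platelets, had 298.4 and 388.3 on the myoepithelial arrays, 13.4 and 69.7 on the luminal arrays, 3.0 and 23.1 on the duct basal arrays, 107.2 and 149.9 on the duct suprabasal arrays, and 0.5 and 2.6 on the epidermis arrays. Of the 10 transglutaminase and matrix substrate genes tested, 4 were higher and 2 lower in duct basal cells than in epidermis (4 to 8 calls). Col1a1, Col1a2 and Col3a1, which also stand on the fibroblast list, were among the higher genes. Against duct suprabasal cells 4 of the 10 were lower in duct basal cells (2 to 5 calls) and 5 in luminal cells (0 to 6 calls), and none was higher. Col1a2 and Col3a1 were among the lower genes in both, so these counts partly repeat those of the fibroblast markers. Fn1, the fibronectin gene, had 166.4 and 159.2 on the duct basal arrays and 680.6 and 5148 on the duct suprabasal arrays (-3.44, adjusted p = 0.0207). In myoepithelial cells 2 were higher than in luminal cells and none lower (0 to 5 calls), and 1 was higher and 1 lower than in duct basal cells (1 to 3 calls). F13a1 was the higher gene against duct basal cells (3.94, adjusted p = 0.00173) and 1 of those higher against luminal cells (2.95, adjusted p = 0.00598). Immune markers moved the same way, with 8 of 8 and 7 of 8 higher in myoepithelial than in luminal and duct basal cells, and their part was not tested.

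Early response genes, to which Ccn1 is often counted, were tested as the last list. Of 22, 2 were higher and 1 lower in myoepithelial than in luminal cells (1 to 6 calls), none was higher and 2 lower than in duct basal cells (2 to 5 calls), 2 were higher in duct basal than in duct suprabasal cells (1 or 2 calls), and 2 were higher and 2 lower in luminal than in duct suprabasal cells (2 to 6 calls). Against epidermis 15 of 22 were higher in duct basal cells and none lower (10 to 15 calls), and the list's median was 2.04 against 0.24 over all genes. Fos had 20208 and 28158 on the duct basal arrays and 785.4 and 1178 on the epidermis arrays (4.62, adjusted p = 2.55e-05). The low epidermal signals of Ccn1, Ccn2, Thbs1, Fstl1 and Tgm2 stood beside low epidermal signals of many, but not all, early response genes, whose part was not tested.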

How the data were processed

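Total RNA of sorted cells was hybridised as biotin-labelled cRNA to 10 mouse arrays, 2 for each of 5 populations. MAS5 is the method in the submitters' processing notes (version not given in the sources used here), and the deposited signal intensity is linear, between 0.1 and 72213. Each array had a mean of 500 once 2% of values were trimmed at either end. Detection calls were not used here. The 64 controls among 22690 probe sets were dropped, and 20380 had 1 symbol, 691 several and 1555 none in the platform annotation, and 20351 were found by Entrez identifier in RefSeq, which changed 0 symbols.

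The probe set with the highest mean stood for a gene. Signals were taken as log2(signal + 12), and 9320 genes were tested, those that exceeded an array's 40th percentile in 2 or more cases. limma 3.58.1 (R 4.3.3) fitted 1 mean per population over all 10 arrays, with variances that follow the mean signal and Benjamini-Hochberg adjustment over all genes at 0.05. The fit was tested on simulated data. Log2 differences understate changes of dim genes. The number of arrays limits the precision. The p-values set each difference against the spread between arrays of a population, estimated over all 10 arrays.

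The 6 genes and the gene lists were chosen with earlier results of these data known. List genes were named if past the threshold, at least 2-fold apart, without overlap between arrays and above the median level of all genes tested, up to 3 per list and direction, with family members and markers also given, and genes named outside this rule are said to be. Genes like a member are the 5 with the highest correlation over 10 arrays. Alternative settings comprised quantile normalization, a pseudocount of 1 or 47, the 60th percentile or no filter, the mean over probe sets, the replicate number as a block, only the 4 arrays compared, and each array left out in turn, with 1 further setting, the shares with an array left out and the Tgm2 contrast under each setting added after the data were seen.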

Additional observations from a re-analysis of the deposited data

Results flagged for a closer look

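Tgm2 stood out because every array of the outer layer was above every array of the inner layer in the gland and below every array of the inner layer in the duct. The difference between the layer differences was 9.39 on the log2(signal + 12) scale, from 5.52 for myoepithelial minus luminal cells and -3.87 for duct basal minus duct suprabasal cells. With all probe sets of Tgm2 averaged it was 6.06, from 3.66 and -2.40, and under the other alternatives it ran between 8.07 and 10.44. The difference between gland and duct was not tested, since Tgm2 was chosen on these signals. Both duct suprabasal arrays carried endothelial transcripts, with a summed signal of 6584 and 30558, against at most 1382 on the other arrays. The part of other cells in the duct difference was not tested.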

How the results depend on the processing

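Of the 30 differences of the 6 genes in 5 comparisons, 25 kept their sign under the 19 alternatives, and 5 did not. Besides those given above with Ccn1, Thbs1 and Fstl1, the small difference of Fstl1 between myoepithelial and duct basal cells ran between -0.29 and 0.17. Of 141 results for named list genes, 80 stayed past the threshold throughout, 61 lost it under at least 1 alternative, and 0 turned round. With probe sets averaged, Tgm2 differed by 3.66 in place of 5.52 between myoepithelial and luminal cells. Of the 30 list counts 26 moved by over 1.5 times under at least 1 alternative. With 1 array left out, the count of all genes ran between 1439 and 3453 for myoepithelial against luminal cells (2896 with all arrays), 1177 and 2833 for myoepithelial against duct basal cells (2261), 449 and 1977 for duct basal against duct suprabasal cells (1525), 315 and 2048 for luminal against duct suprabasal cells (1414), and 1740 and 3746 for duct basal cells against epidermis (3168). The arrays behind moves of over 1.5 times were myoepithelial 2 (1439) and luminal 1 (1648) and 2 (1593) in the first comparison, myoepithelial 1 (1423) and 2 (1182) and duct basal 2 (1177) in the second, duct basal 1 (825) and 2 (449) in the third, luminal 1 (315) and 2 (508) and duct suprabasal 2 (923) in the fourth, and duct basal 1 (1765) and epidermis 1 (1740) and 2 (1894) in the last. A lone array was assumed to vary like the other populations. In fits of the 4 arrays compared only, which leave fewer degrees of freedom, 242 genes passed between the duct layers and 36 between luminal and duct suprabasal cells. With the replicate number as a block the counts were 3289, 2689, 2041, 1884 and 3587, each above that without the block. The labels describe no pairing, so the numbers were not used to pair arrays in the main fit. The array 2 minus array 1 differences of the 10 pairs of populations all correlated positively over genes, at 0.03 to 0.36, and 6 exceeded 0.1. Whether arrays with the same number share a source was not tested. Quantile normalization moved the median difference of all genes by over 0.1 in 4 comparisons, the widest being for duct basal cells against epidermis (-0.05 in place of 0.24). With both myoepithelial array 1 and duct suprabasal array 2 left out, a setting chosen after seeing the data, the counts were 2829, 2159, 2112, 959 and 3786. Signals below about the 40th percentile, as in epidermis, limit what can be said of low levels.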
